A study of Mus musculus with 18 samples.

Results

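Expression of 10 genes of bile acid synthesis and transport was described across pericentral and periportal mouse hepatocytes in fed, 8 h fasted and 24 h fasted animals. The genes were taken by symbol, and the list was chosen with earlier results of these data known. They were the synthesis enzymes Cyp7a1, Cyp8b1, Cyp27a1 and Cyp7b1, the conjugation enzymes Slc27a5 and Baat, the transporters Slc10a1 and Abcb11, and the nuclear receptors Nr1h4 and Nr0b2. All 10 matched 1 identifier each among the 28030 in the table, and all 10 were among the 12477 genes abundant enough to test.

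RNA sequencing libraries were made from hepatocytes that had been separated by lobule zone by digitonin perfusion, in which this detergent permeabilises the hepatocytes on 1 side of the lobule and spares the other side for collection. Every animal was a wild-type male C57BL/6J mouse aged 12 weeks, kept on normal chow (lab diet #5053) and trained for 3 days to fast for 16 h overnight and feed for 8 h by day. Fed mice had 4 h of food with 20% sucrose in the drinking water and were killed at clock hour 13, whereas fasted mice lost both at that hour and were killed after 8 h, at clock hour 21, or after 24 h, at clock hour 13 of the next day. Each of the 6 groups of zone and state held 3 libraries, 18 in all, and the labels do not say which libraries came from the same mouse. P-values therefore measure the spread between these libraries, which may be partly technical. The 8 h groups were thus sampled at another hour of the day than the other groups, and fasting and hour of day cannot be told apart in any 8 h difference. Each library is a bulk sample, in which fewer cells of a type and less RNA per cell cannot be told apart.

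Bile acids are made from cholesterol in hepatocytes. The classical route starts with Cyp7a1 and sends part of its product through Cyp8b1 to cholic acid, and the alternative route starts with Cyp27a1 and passes through Cyp7b1. The products are activated by Slc27a5, joined to taurine or glycine by Baat, pumped into the bile canaliculus by Abcb11 and taken back from portal blood by Slc10a1. The receptor FXR, encoded by Nr1h4, senses bile acids and induces Nr0b2, which encodes the repressor SHP and dampens Cyp7a1 and Cyp8b1.

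Promoters are shown for 4 of these genes, those that passed a test of zone or feeding state below and had an entry in the promoter table: Cyp8b1 and Cyp27a1 were lower in periportal hepatocytes, Nr0b2 was higher there, and Abcb11 differed by feeding state. Each is the 250 bases before the RefSeq transcript start on build GRCm38.p6, written 5′ to 3′ on the gene's strand. The windows are chr9:121916306-121916555 on the minus strand for Cyp8b1, chr1:74713285-74713534 on the plus strand for Cyp27a1, chr2:69342617-69342866 on the minus strand for Abcb11 and chr4:133553126-133553375 on the plus strand for Nr0b2. Capitals mark matches, on either strand, to the HNF4 core CAAAGTCCA, the LRH-1 core TCAAGG, the E-box CACGTG, or an inverted repeat of AGGTCA spaced by 1 base with at most 1 mismatch, the kind of element that FXR is known to bind.
Cyp8b1: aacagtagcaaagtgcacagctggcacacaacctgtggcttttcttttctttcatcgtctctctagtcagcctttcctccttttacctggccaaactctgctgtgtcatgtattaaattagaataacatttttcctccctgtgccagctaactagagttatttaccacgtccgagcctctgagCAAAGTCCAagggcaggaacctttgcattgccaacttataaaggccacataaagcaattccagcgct
Cyp27a1: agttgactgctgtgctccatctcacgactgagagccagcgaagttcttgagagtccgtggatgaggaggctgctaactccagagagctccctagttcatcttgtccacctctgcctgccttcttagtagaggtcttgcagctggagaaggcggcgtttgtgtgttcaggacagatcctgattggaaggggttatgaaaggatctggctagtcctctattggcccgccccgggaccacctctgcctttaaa
Abcb11: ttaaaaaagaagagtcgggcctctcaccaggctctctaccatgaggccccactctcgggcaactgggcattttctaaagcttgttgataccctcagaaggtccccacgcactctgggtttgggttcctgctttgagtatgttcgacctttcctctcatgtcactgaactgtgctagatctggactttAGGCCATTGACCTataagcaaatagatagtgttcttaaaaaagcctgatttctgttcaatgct
Nr0b2: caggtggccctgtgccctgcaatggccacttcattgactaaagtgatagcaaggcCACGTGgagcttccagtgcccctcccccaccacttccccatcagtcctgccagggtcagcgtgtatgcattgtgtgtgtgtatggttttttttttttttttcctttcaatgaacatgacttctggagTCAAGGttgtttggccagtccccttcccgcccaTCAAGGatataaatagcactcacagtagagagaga
In Cyp8b1 the HNF4 core lay 67 to 59 bases before the start, and 0.384% of 32851 promoter windows of the same length held that motif. The Abcb11 window held AGGCCATTGACCT, an inverted repeat 63 to 51 bases before the start, a match found in 0.0791% of windows. Nr0b2 had LRH-1 cores 68 to 63 and 35 to 30 bases before the start, and at least 2 copies were found in 0.922% of windows. Its E-box lay 195 to 190 bases before the start, and 6.02% of windows held one. None of the motifs overlapped another, and a match describes letters only, not a bound site. The Cyp27a1 window held none of these motifs, nor did those of Slc10a1 and Nr1h4, and those of Cyp7a1, Cyp7b1, Slc27a5 and Baat were not analysed here.

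Libraries held 1.84e+07 to 2.64e+07 estimated counts each, and the lowest count of any of the 10 genes in any library was 162. Levels are given below as CPM, counts scaled to a common effective library size, which is the library total times its TMM normalisation factor. The zone labels were checked with fixed marker lists, whose summed level was 9456 to 18580 CPM in pericentral and 422 to 2050 CPM in periportal libraries for 7 pericentral genes, and 326 to 1891 CPM against 3499 to 6024 CPM for 6 periportal genes. In pericentral libraries the periportal sum was 326 to 533 CPM fed, 589 to 738 CPM after 8 h and 895 to 1891 CPM after 24 h. Summed markers of sinusoidal endothelial cells (5 genes) reached at most 9.29 CPM in pericentral and 25.8 CPM in periportal libraries, and those of Kupffer cells and leukocytes (6 genes) 5.33 and 19.7 CPM. Averaged over states, 3 of 4 endothelial and 4 of 6 Kupffer and leukocyte markers tested were called higher in periportal libraries, and 0 lower. Of the stellate and fibroblast markers, 0 of 3 tested were called. Among all genes tested, 10.3% were called higher. Summed bile duct markers (6 genes) were at 22.5 to 53.3 CPM in pericentral and 39.1 to 68.3 CPM in periportal libraries. Of these 6, Slc10a2 reached 36.8, Krt7 20.2 and Sox9 17.4 CPM, 2 (Sox9 and Slc10a2) were called higher in periportal hepatocytes averaged over states, Krt19 and Cftr stayed at or below 0.506 CPM, and Epcam was at 0 in every library. The part of these markers in the zone differences was not tested. A pair of 24 h libraries stood apart on zone markers. Pericentral replicate 2 had 111 CPM of Glul and 8.82 CPM of Slc1a2, where the other pericentral 24 h libraries had 707 CPM or more and 241 CPM or more, and periportal replicate 1 had the highest periportal Cyp2e1, 1826 CPM.

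The enzymes of the classical route were lower in periportal hepatocytes. Cyp7a1, the rate-limiting enzyme of that route (chr4:6265612-6275633, minus strand, GRCm38), was lower in periportal than in pericentral hepatocytes in every feeding state. Pericentral Cyp7a1 stood at 312, 464 and 334 CPM in the fed libraries, at 210.2, 370.1 and 179.7 CPM after 8 h and at 491, 282 and 213 CPM after 24 h. Periportal Cyp7a1 stood at 11.4, 41.8 and 47.5 CPM fed, 23.3, 26.4 and 15.3 CPM after 8 h and 82.8, 20.5 and 7.45 CPM after 24 h. The 9 pericentral libraries all lay above the 9 periportal ones, with the lowest pericentral value, after 8 h, still above the highest periportal value, that of 24 h replicate 1. When fed, periportal hepatocytes had an 11.02-fold lower level than pericentral ones, a log2 fold change of -3.46 (standard error, SE, 0.76) with an adjusted p of 0.0118 in edgeR's quasi-likelihood test with Benjamini-Hochberg adjustment over all genes tested. After 8 h it was -3.55 (SE 0.76, edgeR adjusted p 0.012), and after 24 h -3.16 (SE 0.75, edgeR adjusted p 0.0308). Averaged over the states the level was 10.5-fold lower, with a log2 fold change of -3.39 (SE 0.44, edgeR adjusted p 8.23e-05).

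The spread of Cyp7a1 within groups was wide, and single libraries moved its test. Periportal 24 h replicate 1, the library with the highest periportal Cyp2e1, also had the highest periportal Cyp7a1. Without that library the 24 h difference was -4.55 on the log2 scale (edgeR adjusted p 0.00342), and without pericentral 24 h replicate 2 it was -3.26 (edgeR adjusted p 0.0504). Leaving out pericentral 24 h replicate 1 or periportal 24 h replicate 2 or 3 gave edgeR adjusted p-values of 0.0951, 0.131 and 0.0797, and leaving out periportal 8 h replicate 3 gave 0.0702 for the 8 h difference. Fitting only the 24 h groups with the replicate number as a block, an analysis chosen after the data were seen, gave -3.68 (edgeR adjusted p 0.0963), and fitting them without the block gave -3.15 (edgeR adjusted p 0.241). With no filter beyond 1 count the 24 h edgeR adjusted p was 0.0611. The fed and averaged differences passed the test with any 1 library left out.

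Cyp8b1, which turns the route towards cholic acid (chr9:121914356-121916305, minus strand), had a shallower gradient in the same direction. Pericentral Cyp8b1 was at 350.3, 328 and 509 CPM fed, 483, 558 and 533 CPM after 8 h and 636, 506 and 382 CPM after 24 h. Its periportal level was 186, 193 and 218 CPM fed, 320, 286 and 390.4 CPM after 8 h and 293, 118 and 245 CPM after 24 h. Within each state the groups did not overlap, although the 8 h periportal libraries reached into the range of the fed pericentral ones. The zones likewise did not overlap for 28.3%, 23.9% and 22.1% of all genes tested when fed, after 8 h and after 24 h. Periportal hepatocytes had a 1.99-fold lower level when fed (log2 fold change -0.99, SE 0.27, edgeR adjusted p 0.0303) and a 2.32-fold lower level after 24 h (log2 fold change -1.22, SE 0.27, edgeR adjusted p 0.0157). The 8 h difference was -0.66 on the log2 scale (SE 0.27) and did not pass the test (edgeR adjusted p 0.16). The averaged difference was 1.94-fold (log2 fold change -0.96, SE 0.15, edgeR adjusted p 0.000301).

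For Cyp8b1 the fed call was lost without pericentral fed replicate 3 (log2 fold change -0.77, edgeR adjusted p 0.136) and without periportal fed replicate 1, 2 or 3 (edgeR adjusted p 0.109, 0.0894 and 0.0675), and with no filter beyond 1 count (edgeR adjusted p 0.0623). The 24 h call was lost without pericentral 24 h replicate 1 (log2 fold change -1.02, edgeR adjusted p 0.0769), and also in the fit of the 24 h groups alone, with the replicate block (log2 fold change -1.27, edgeR adjusted p 0.156) or without it (log2 fold change -1.21, edgeR adjusted p 0.173). Without the libraries that stood apart, pericentral replicate 2 or periportal replicate 1, the 24 h difference was -1.22 and -1.48 (edgeR adjusted p 0.037 and 0.00826).

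Cyp27a1, the mitochondrial enzyme that opens the alternative route and also shortens the sterol side chain (chr1:74713574-74737892, plus strand), was called lower in periportal hepatocytes in all 3 states. Pericentral libraries held 599, 522 and 667 CPM of Cyp27a1 fed, 505, 602 and 714 CPM after 8 h and 607, 474 and 676 CPM after 24 h. Periportal libraries held 180.2, 239 and 192 CPM fed, 294, 302 and 306 CPM after 8 h and 292, 243 and 223 CPM after 24 h. No periportal library reached the lowest pericentral one. The periportal level was 2.92-fold lower when fed (log2 fold change -1.55, SE 0.16, edgeR adjusted p 1.98e-05), 2.02-fold lower after 8 h (log2 fold change -1.01, SE 0.16, edgeR adjusted p 0.000812) and 2.32-fold lower after 24 h (log2 fold change -1.21, SE 0.16, edgeR adjusted p 0.000363). These calls held with any 1 library left out, and the 24 h call held with the replicate block in the 24 h groups alone (log2 fold change -1.20, edgeR adjusted p 0.0128).

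The other alternative-route enzyme, Cyp7b1, which hydroxylates oxysterols (chr3:18071950-18243338, minus strand), passed the test in no zone or state contrast. Its pericentral level was 112, 180.2 and 219 CPM fed, 282, 229 and 133 CPM after 8 h and 169.8, 117 and 106 CPM after 24 h. Periportal Cyp7b1 was at 123, 86.9 and 81.2 CPM fed, 119, 131 and 125 CPM after 8 h and 113, 57.3 and 223 CPM after 24 h. Fed and 24 h groups overlapped between zones, and the 8 h groups were separated only narrowly. Averaged over states, Cyp7b1 had a log2 fold change of -0.53 (SE 0.24, edgeR adjusted p 0.139). Periportal 24 h replicate 3 was the highest periportal library, and without it the averaged difference was -0.74 (edgeR adjusted p 0.0176).

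**Figure D1:**
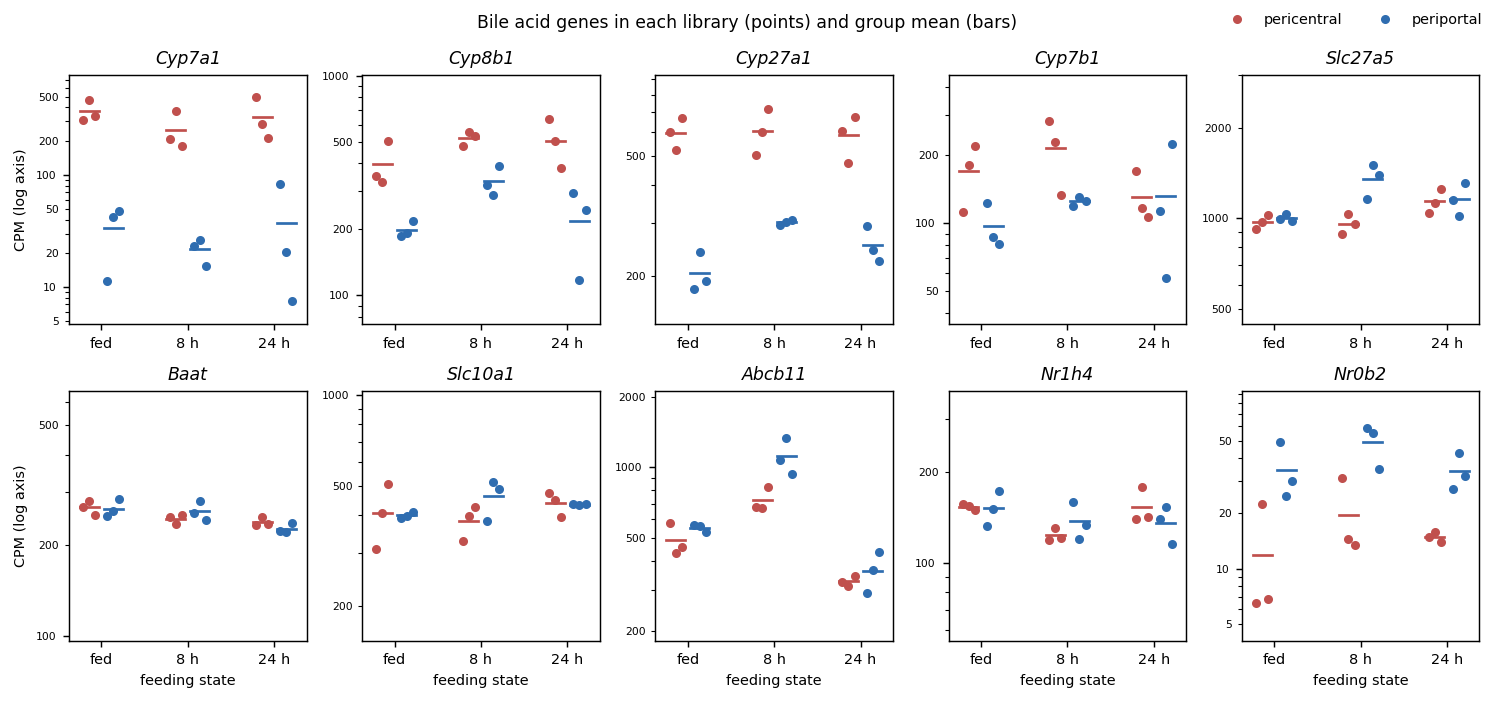
Expression of the 10 genes in each library, in CPM on a log axis, by zone and feeding state; points are libraries, short bars are means of 3 libraries, pericentral in red and periportal in blue. The pericentral points of Cyp7a1 and Cyp27a1 lie above all periportal points, those of Nr0b2 lie below the periportal points of the same state, and Abcb11 peaks at 8 h in both zones.

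The conjugation enzymes mostly overlapped between zones. Slc27a5, the bile acyl-CoA synthetase (chr7:12988346-12998192, minus strand), was at 923, 974 and 1023 CPM in fed pericentral libraries, 889, 1032 and 957 CPM after 8 h and 1043, 1127 and 1251 CPM after 24 h. Periportal Slc27a5 was at 996, 1030.4 and 983 CPM fed, 1158, 1502 and 1394 CPM after 8 h and 1146, 1016 and 1309 CPM after 24 h. The zones overlapped when fed and after 24 h and were separate after 8 h, when all periportal libraries were higher. At 8 h the periportal level was 1.41-fold higher (log2 fold change 0.49, SE 0.12, edgeR adjusted p 0.0205). This call was lost without pericentral 8 h replicate 1 or 3 (edgeR adjusted p 0.0843 and 0.068), without periportal 8 h replicate 2 or 3 (edgeR adjusted p 0.1 and 0.0775), and with only the 8 h groups in the fit (edgeR adjusted p 0.157).

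Baat, which joins the activated bile acid to its amino acid (chr4:49489422-49506557, minus strand), was nearly level. Its 18 libraries lay between 222 and 284 CPM. Group means ran from 227 ± 8.37 CPM (SD, n = 3) in 24 h periportal to 267 ± 14.9 CPM (SD, n = 3) in fed pericentral hepatocytes. None of the 13 contrasts of Baat passed edgeR's test, and 2 had an unadjusted p under 0.05. The Wald test of DESeq2 called periportal Baat lower at 24 h than fed (log2 fold change -0.21, adjusted p 0.0323). The log2 fold changes of Baat lay between -0.22 and 0.10.

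Of the transporters, Slc10a1, the sodium-dependent uptake carrier also called NTCP (chr12:80953183-80968705, minus strand), did not separate the zones. Its group means lay between 384 ± 51.1 CPM (SD, n = 3) in 8 h pericentral and 462 ± 69.4 CPM (SD, n = 3) in 8 h periportal hepatocytes. The widest group was fed pericentral, with 308, 405 and 507 CPM, and the tightest was 24 h periportal, with 434, 431 and 435 CPM. None of its 13 contrasts passed edgeR's test and 0 had an unadjusted p under 0.05, with log2 fold changes between -0.29 and 0.30.

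Abcb11, the bile salt export pump BSEP (chr2:69238282-69342616, minus strand), was the only 1 of the 10 genes called in every comparison between feeding states within a zone. Pericentral Abcb11 was at 578, 431 and 459 CPM fed, 676, 673 and 822 CPM after 8 h and 324, 313 and 344 CPM after 24 h. In periportal hepatocytes it was at 565, 564 and 529.7 CPM fed, 1076, 1330 and 939 CPM after 8 h and 291, 363 and 433 CPM after 24 h. In both zones all 8 h libraries were above all fed ones, and all 24 h libraries were below them. From fed to 8 h it rose 1.48-fold in pericentral hepatocytes (log2 fold change 0.56, SE 0.16, edgeR adjusted p 0.0228) and 2.02-fold in periportal hepatocytes (log2 fold change 1.01, SE 0.16, edgeR adjusted p 0.000475). From 8 h to 24 h it fell 2.21-fold (log2 fold change -1.15, SE 0.16, edgeR adjusted p 0.000509) and 3.07-fold (log2 fold change -1.62, SE 0.16, edgeR adjusted p 3.66e-05), respectively. At 24 h it stood below fed by 1.496-fold in pericentral (log2 fold change -0.58, SE 0.16, edgeR adjusted p 0.0141) and 1.52-fold in periportal hepatocytes (log2 fold change -0.61, SE 0.16, edgeR adjusted p 0.012).

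The fall of Abcb11 from 8 h to 24 h and its periportal rise at 8 h were called with any 1 library left out. Its pericentral rise at 8 h was lost without pericentral fed replicate 2 or 3 or 8 h replicate 3 (edgeR adjusted p 0.102, 0.0848 and 0.1). The 24 h level against fed was no longer called in pericentral hepatocytes without fed replicate 1 (log2 fold change -0.45, edgeR adjusted p 0.0781), and in periportal hepatocytes without 24 h replicate 1 (log2 fold change -0.47, edgeR adjusted p 0.0588). The transcription factor Dbp, an output of the circadian clock, was picked once its values were known and moved with the 8 h groups, at means of 0.621 ± 0.581 CPM pericentral and 1.18 ± 0.0737 CPM periportal (SD, n = 3) against at least 17.2 CPM in the other 4 groups. Its part in the 8 h values of Abcb11 was not tested.

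Abcb11 was also 1.54-fold higher in periportal than in pericentral hepatocytes after 8 h (log2 fold change 0.62, SE 0.16, edgeR adjusted p 0.0214), when the zones did not overlap. The zone difference was 0.18 when fed (edgeR adjusted p 0.588) and 0.15 after 24 h (edgeR adjusted p 0.706), and averaged over states it was 1.25-fold (log2 fold change 0.32, SE 0.09, edgeR adjusted p 0.0193). Removing pericentral 8 h replicate 1 or 2 or periportal 8 h replicate 2 gave edgeR adjusted p-values of 0.0866, 0.0971 and 0.118 for the 8 h difference, and the fit of the 8 h groups alone gave 0.109. The averaged difference had an edgeR adjusted p of 0.0521 without pericentral fed replicate 2.

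The sensor and the repressor differed in pattern. Nr1h4, which encodes FXR (chr10:89454234-89533585, minus strand), had group means from 124 ± 6.25 CPM (SD, n = 3) in 8 h pericentral to 154 ± 21.5 CPM (SD, n = 3) in 24 h pericentral hepatocytes. Fed pericentral libraries were at 157, 154 and 149.7 CPM and the 8 h pericentral ones at 119, 131 and 121 CPM, a drop without overlap that did not pass the test (log2 fold change -0.31, edgeR adjusted p 0.134). Among all genes tested, 32.2% did not overlap in this contrast. None of the 13 contrasts of Nr1h4 passed edgeR's test, and 2 had an unadjusted p under 0.05.

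Nr0b2, which encodes SHP (chr4:133553376-133556536, plus strand), ran against the gradient of Cyp7a1, Cyp8b1 and Cyp27a1. Its pericentral level was 6.46, 22.4 and 6.85 CPM fed, 31.2, 14.6 and 13.4 CPM after 8 h and 15.0, 15.8 and 13.9 CPM after 24 h. The periportal level was 49.3, 25.05 and 29.9 CPM fed, 58.6, 54.8 and 34.8 CPM after 8 h and 27.3, 42.6 and 32.0 CPM after 24 h. Periportal libraries were higher than pericentral ones of the same state in all 3 states. The nearest values were 25.05 and 22.4 CPM fed, 34.8 and 31.2 CPM after 8 h and 27.3 and 15.8 CPM after 24 h. By single state the log2 fold changes of 1.55, 1.33 and 1.19 (SE 0.46 each) did not pass the test (edgeR adjusted p 0.0593, 0.105 and 0.197). Averaged over states the periportal level was 2.56-fold higher (log2 fold change 1.35, SE 0.27, edgeR adjusted p 0.00234), and this call held with any 1 library left out.

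Fed pericentral replicate 2 was the high library of its Nr0b2 group, and without it the fed difference was 2.38 on the log2 scale (edgeR adjusted p 0.00344). The 8 h difference was then 1.31 (edgeR adjusted p 0.0285), beside 1.33 with all libraries. That library is in neither 8 h group but shares the estimate of spread. With all libraries, the Wald test of DESeq2 (adjusted p 0.0151 fed and 0.049 at 8 h) and limma-voom (adjusted p 0.0132 and 0.0313) called the fed and 8 h differences. The fit of the 24 h groups alone called the 24 h difference, with the replicate block (log2 fold change 1.18, edgeR adjusted p 0.0083) or without it (log2 fold change 1.20, edgeR adjusted p 0.00686).

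Across the zone contrasts, 3 of the 10 genes were called lower and 0 higher in fed periportal hepatocytes (Cyp7a1, Cyp8b1 and Cyp27a1), where 8.01% of all genes tested were called, 4.13% lower and 3.89% higher. After 8 h, 4 of 10 were called, with Cyp7a1 and Cyp27a1 lower and Slc27a5 and Abcb11 higher, against 7.14% of all genes, 3.42% lower and 3.72% higher. After 24 h, the 3 genes of the fed state were called lower again, against 4.17% of all genes, 2.47% lower and 1.70% higher. Averaged over states, 5 of 10 were called (Cyp7a1, Cyp8b1 and Cyp27a1 lower, Abcb11 and Nr0b2 higher), against 20.3% of all genes, 9.96% lower and 10.3% higher. The median log2 fold change of the 10 genes was -0.02 fed, 0.12 at 8 h and -0.05 at 24 h, beside medians of all genes within 0.01 of 0. The zones did not overlap for 4, 7 and 4 of the 10 genes in these states, against 28.3%, 23.9% and 22.1% of all genes tested.

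**Figure D2:**
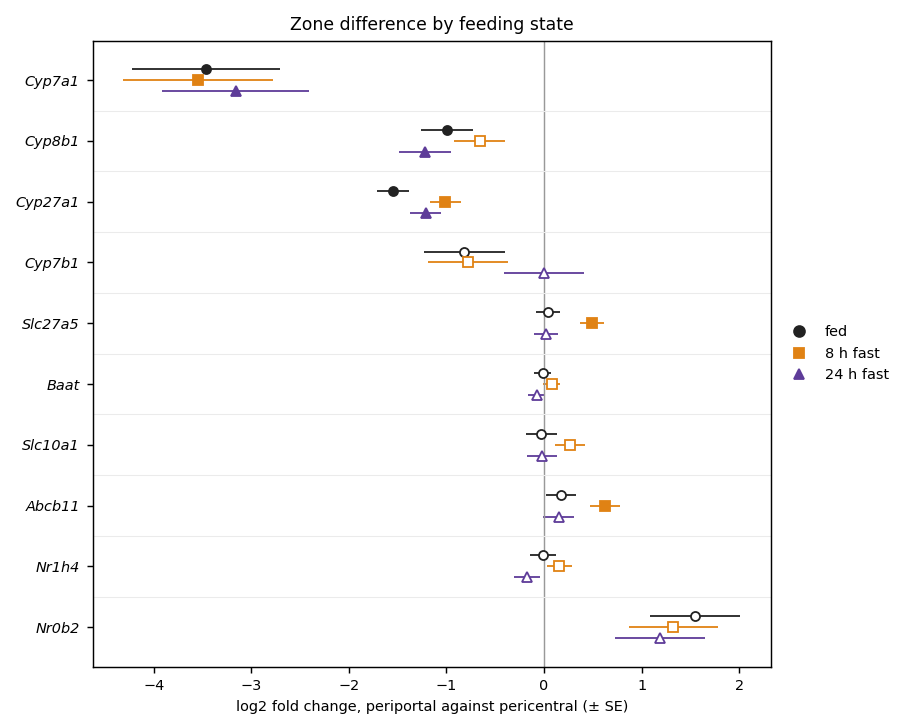
Periportal against pericentral log2 fold change of the 10 genes in each feeding state, with standard errors as bars; filled points passed edgeR's test at an adjusted p under 0.05 and open points did not. Cyp7a1 lies near -3.5 to -3.2 in all states, Cyp27a1 and Cyp8b1 lie below 0, and Nr0b2 lies between 1.19 and 1.55 without a call in any single state.

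Few of the 10 genes changed with feeding state. From fed to 8 h in pericentral hepatocytes, 1 of 10 was called (Abcb11), against 13.8% of all genes, and from fed to 24 h again 1 of 10 (Abcb11), against 21.8%. The step from 8 h to 24 h called Abcb11 alone in both zones, against 9.71% of all genes in pericentral and 7.46% in periportal hepatocytes. In periportal hepatocytes 3 of 10 were called from fed to 8 h (Cyp27a1, Slc27a5 and Abcb11, all higher), against 14.4% of all genes (7.56% higher), and 1 of 10 from fed to 24 h (Abcb11), against 19.6%. These shares are near or below those of all genes, apart from the periportal step to 8 h. Overlap was counted in the order fed to 8 h, fed to 24 h and 8 h to 24 h. Pericentral groups did not overlap for 2, 3 and 3 of the 10 genes, against 32.2%, 38.7% and 28.9% of all genes. Periportal groups did not overlap for 4, 3 and 3, against 31.6%, 36.9% and 25.4%.

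Periportal Cyp27a1 rose 1.48-fold from fed to 8 h (log2 fold change 0.56, SE 0.16, edgeR adjusted p 0.0253), with all 8 h libraries above all fed ones. Periportal Slc27a5 rose 1.35-fold over the same step (log2 fold change 0.43, SE 0.12, edgeR adjusted p 0.0265), also without overlap. Both rest on few libraries. The Cyp27a1 call was lost without periportal fed replicate 1 or 3 or 8 h replicate 2 or 3 (edgeR adjusted p 0.117, 0.0781, 0.0629 and 0.0649). The Slc27a5 call was lost without any 1 of the fed periportal libraries (edgeR adjusted p 0.0828, 0.0578 and 0.072 for replicates 1 to 3) and without periportal 8 h replicate 2 or 3 (0.117 and 0.0774). With only the fed and 8 h periportal groups in the fit it was 0.0857.

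The other synthesis genes had no called fasting change. Against fed, Cyp7a1 had log2 fold changes of -0.55 and -0.17 in pericentral hepatocytes after 8 h and 24 h (edgeR adjusted p 0.681 and 0.893), and of -0.63 and 0.13 in periportal hepatocytes (edgeR adjusted p 0.626 and 0.93). The direction of the last value rests on single libraries, with -1.26 when periportal 24 h replicate 1 was left out (edgeR adjusted p 0.188) and -0.28 when periportal fed replicate 1 was left out (edgeR adjusted p 0.857). Periportal Cyp8b1 after 8 h had a log2 fold change of 0.74 with no overlap (SE 0.27, edgeR adjusted p 0.0768), and without periportal 24 h replicate 2, which is in neither group but shares the estimate of spread, the adjusted p was 0.017. It was also called by the Wald test of DESeq2 (adjusted p 0.0267) and with only the fed and 8 h periportal groups in the fit (edgeR adjusted p 0.0152). Nr0b2 had log2 fold changes against fed of 0.73 and 0.33 in pericentral and 0.51 and -0.03 in periportal hepatocytes, none of them called. Without fed pericentral replicate 2 the pericentral changes were 1.58 after 8 h, which was called (edgeR adjusted p 0.0221), and 1.16 after 24 h (edgeR adjusted p 0.0607).

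Whether fasting acted differently in the zones was tested as the periportal change minus the pericentral change. None of the 10 genes was called for any of the 3 steps by edgeR, DESeq2 or limma-voom, and the same test called 0%, 0.0160% and 0% of all genes from fed to 8 h, fed to 24 h and 8 h to 24 h. Before adjustment, 2, 0 and 2 of the 10 genes had an edgeR p under 0.05. The share of all genes under that unadjusted cut is not given here, so these counts cannot be set against it. Those for the step to 8 h were Cyp27a1, with a difference of 0.53 on the log2 scale (edgeR adjusted p 0.909), and Slc27a5, with 0.45 (edgeR adjusted p 0.909). Those from 8 h to 24 h were Slc27a5 and Abcb11, with -0.47 each (edgeR adjusted p 0.776 and 0.829). For Abcb11 the periportal change exceeded the pericentral one by 0.45 at 8 h (SE 0.22, edgeR adjusted p 0.911), so its larger periportal rise is not shown to differ from the pericentral rise.

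**Figure D3:**
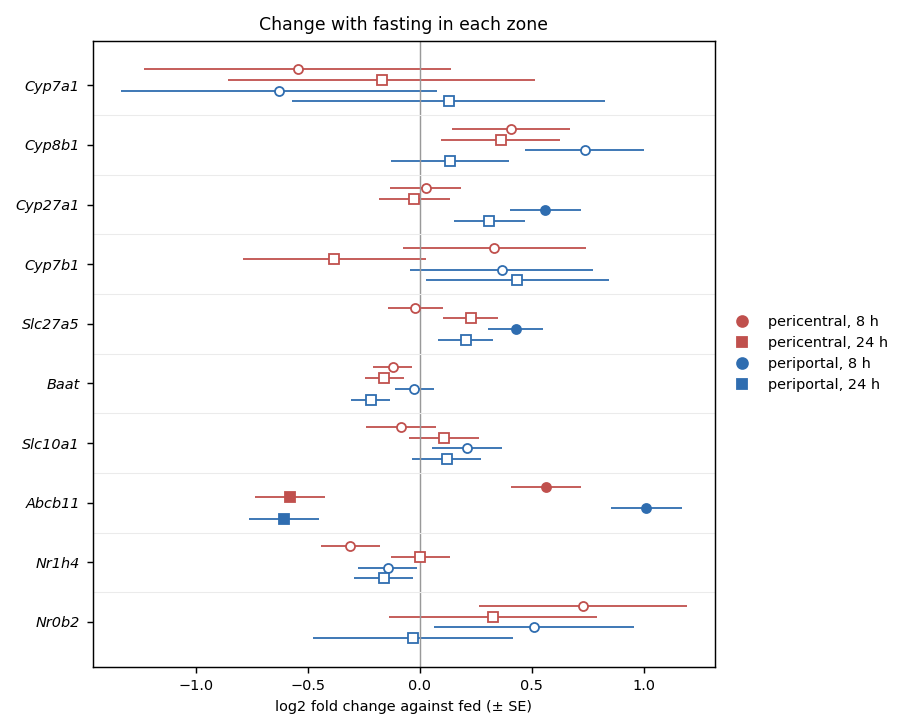
Log2 fold change of the 10 genes against fed after 8 h and 24 h in each zone, with standard errors as bars; filled points passed edgeR's test at an adjusted p under 0.05. Abcb11 lies above 0 after 8 h and below 0 after 24 h in both zones, and most of the other points are open.

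Levels were compared between genes per length, as TPM, computed from the counts with a fixed length per gene. In fed pericentral hepatocytes Slc27a5 led at a mean of 918 TPM, followed by Cyp27a1 at 436, Slc10a1 at 334, Cyp8b1 at 279 and Baat at 232 TPM, among which the libraries of each neighbouring pair below Slc27a5 overlapped. Below them came Abcb11 at 138, Cyp7a1 at 123, Cyp7b1 at 108 and Nr1h4 at 108 TPM, again overlapping, and Nr0b2 at 14.6 TPM. In fed periportal hepatocytes Slc27a5 led at 941 TPM and Slc10a1 came next at 328 TPM, then Baat at 227 TPM, each apart from its neighbours. Abcb11 at 153, Cyp27a1 at 149 and Cyp8b1 at 141 TPM overlapped, Nr1h4 stood at 106 TPM, and Cyp7b1 at 61.2 and Nr0b2 at 41.9 TPM overlapped. Cyp7a1 was last at 11.2 TPM, below every Nr0b2 library. It remained the lowest of the 10 in periportal hepatocytes after 8 h (6.55 TPM) and 24 h (11.3 TPM), whereas Nr0b2 was the lowest in all 3 pericentral groups.

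The genes nearest to Cyp7a1 in pattern over the 18 libraries were sought by the root mean square difference of log2 CPM, each gene centred on its own mean, among 7131 genes. Fitm1, Npr2 and Aldh3a2 came closest, at 0.57, 0.63 and 0.69, where the median gene differed by 1.99. For Cyp8b1 they were Plpp3 at 0.35, Diaph2 at 0.37 and Cyp27a1 at 0.39, where the median was 0.67. For Cyp7b1 they were F11 at 0.34, Tmem176a at 0.34 and Pros1 at 0.35, where the median was 0.62.

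Other genes of the pathway were taken from lists of 16 enzymes, 14 transporters and 22 regulators, of which 48 genes in all were tested. In the averaged zone contrast 3 of 15 enzymes tested were called higher and 5 lower in periportal hepatocytes. The enzyme Hsd3b7, which serves both routes, was 2.597-fold lower in periportal hepatocytes (means of 134 and 325 CPM, log2 fold change -1.38, SE 0.11, edgeR adjusted p 1.1e-07), the direction of Cyp7a1 and Cyp27a1. Akr1c6, a hydroxysteroid dehydrogenase, was 4.39-fold lower (means of 153 and 653 CPM, edgeR adjusted p 1.54e-07). Cyp39a1, an oxysterol hydroxylase, was 4.15-fold higher (28.5 and 7.44 CPM, edgeR adjusted p 4.93e-05), and Cyp2a12 2.15-fold higher (679 and 320 CPM, edgeR adjusted p 6.05e-05).

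Among 13 transporters tested, 2 were called higher and 7 lower in periportal hepatocytes. Slco1b2, an organic anion carrier that takes up unconjugated bile acids, was 2.74-fold lower there (means of 468 and 1291 CPM, log2 fold change -1.45, SE 0.09, edgeR adjusted p 1.54e-08), in contrast to the level Slc10a1. Slco1a1 was 1.66-fold lower (edgeR adjusted p 0.036) and Abcb1a 2.56-fold higher (edgeR adjusted p 4.1e-05). Of 20 regulators, 3 were higher and 2 lower. Ppargc1a, a coactivator, was 1.98-fold higher in periportal hepatocytes (edgeR adjusted p 6.04e-05), Klb, the coreceptor of the hormone FGF15, 1.20-fold higher (edgeR adjusted p 0.0318), Nr1i3, which encodes the receptor CAR, 2.40-fold lower (edgeR adjusted p 1.31e-05), and Ppara 1.22-fold lower (edgeR adjusted p 0.0256). The share called among all genes in this contrast is given above as 20.3%.

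After 24 h of fasting, of 20 regulators tested, 9 were called higher in pericentral and 8 in periportal hepatocytes and 0 lower, where 10.8% and 9.59% of all genes were called higher. The rest did not pass the test. Ppargc1a rose 3.20-fold in both zones (edgeR adjusted p 0.00016 and 0.000153), and Foxo1, a transcription factor held back by insulin, rose 2.41-fold and 2.58-fold (edgeR adjusted p 8.57e-05 and 5.68e-05). Of the transporters, 2 rose and 2 fell in pericentral and 2 rose and 1 fell in periportal hepatocytes, of 13 tested, beside 21.8% and 19.6% of all genes called in either direction. Abcg8, a canalicular sterol exporter subunit, rose 2.10-fold and 2.33-fold (edgeR adjusted p 0.00836 and 0.00434), Abcb4, the canalicular phospholipid floppase, rose 1.51-fold and 1.72-fold (edgeR adjusted p 0.00725 and 0.00124), and Atp8b1, a canalicular flippase, fell 2.08-fold and 1.76-fold (edgeR adjusted p 0.000124 and 0.00117). Slco2b1 fell 1.45-fold in pericentral hepatocytes (edgeR adjusted p 0.00411). Abcb11, of the same canalicular membrane, fell in both zones at 24 h as given above.

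Of 15 enzymes, 4 rose and 1 fell in pericentral and 2 rose and 2 fell in periportal hepatocytes after 24 h, beside the same 21.8% and 19.6% of all genes. Cyp2c70, which makes the muricholic acids of mice, fell from 332 to 91.3 CPM in pericentral (3.64-fold, edgeR adjusted p 0.000646) and from 191 to 80.1 CPM in periportal hepatocytes (2.38-fold, edgeR adjusted p 0.00979). Acot8, a peroxisomal thioesterase, rose 1.68-fold and 1.58-fold (edgeR adjusted p 0.00205 and 0.00612). Cyp39a1, which was higher in periportal hepatocytes, rose 3.06-fold in pericentral ones (edgeR adjusted p 0.0222), where the summed periportal markers were also higher after 24 h, and the part of these markers was not tested. In periportal hepatocytes Slc27a2 rose 1.66-fold (edgeR adjusted p 0.0017) and Akr1c6 fell 1.94-fold (edgeR adjusted p 0.0204). Slc27a2 was also called higher in pericentral hepatocytes, at means of 986 CPM fed and 1604 CPM after 24 h. Akr1c6 was not called there, at means of 786 and 576 CPM.

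**Figure D4:**
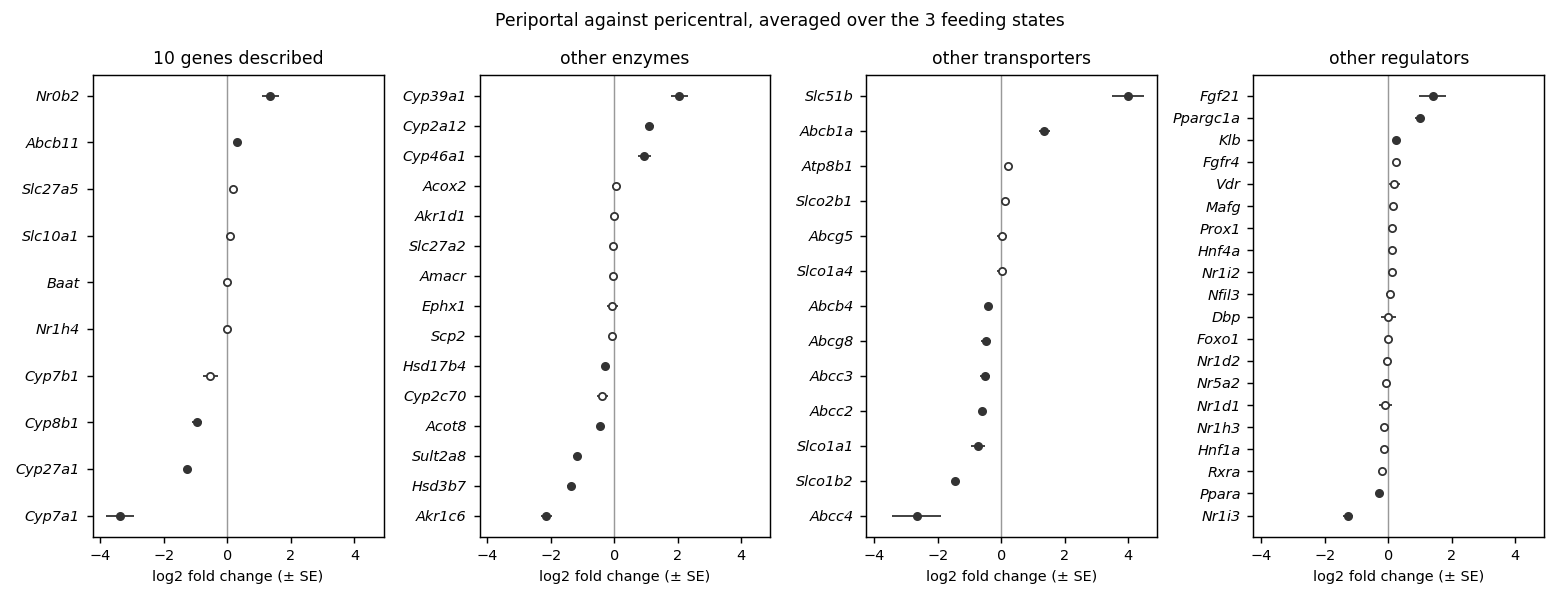
Periportal against pericentral log2 fold change averaged over the 3 states for the 10 genes and for the other enzymes, transporters and regulators tested, with 1 point per gene and standard errors as bars; filled points passed edgeR's test at an adjusted p under 0.05. Points to the left are higher in pericentral hepatocytes, with Cyp7a1 at -3.39 the lowest of the 10 genes and Nr0b2 at 1.35 the highest.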

How the data were processed

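RNA sequencing was done on 18 libraries in 6 groups of zone and feeding state, 3 libraries each. The authors deposited estimated counts per Ensembl gene, made with kallisto 0.46.0 on build mm10, per the submitters' processing notes. The annotation release and the use of strand are not given in the sources used here, so overlapping and antisense genes cannot be separated. The table held 28030 identifiers, 27566 of them with a symbol, 0 columns of other samples, and library totals of 1.84e+07 to 2.64e+07. The number of libraries per group, 3, limits the precision.

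Rounded estimated counts went into edgeR 4.0.16 in R 4.3.3 (filterByExpr, TMM, robust quasi-likelihood fit of all 6 groups, F test). Each of 13 contrasts had Benjamini-Hochberg adjustment over 12477 genes, which took up 99.95% or more of every library, and calls needed an adjusted p below 0.05. An SE is the size of the log2 fold change over the square root of F. The pipeline was tested on simulated data. CPM used TMM factors, and TPM used the median length of each gene's protein-coding transcripts in GENCODE M21. Gene positions are from that annotation (GRCm38). Promoters are 250 bases before the start from RefSeq (GRCm38.p6), with 6 of the 10 genes matched, and each motif was searched on both strands.

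The 10 genes are always named. From each of the other pathway lists, up to 2 called genes per direction were named in the averaged zone contrast and in 24 h against fed per zone, by size of fold change, if they averaged 5 CPM or more on the higher side. Likeness needed a mean of at least 10 CPM in some group. Dbp, Slc10a2 and Slc51b were named after their values were seen, and zone and cell type markers serve as checks. The genes and lists were chosen with earlier results of these data known. Alternatives were DESeq2 1.42.0 size factors and Wald test, limma-voom (limma 3.58.1), other low-count filters, only the groups compared, scaling without the 20 most abundant genes, a replicate block and leaving out each library. Same-numbered libraries deviated together with correlations from -0.12 to 0.21 over 15 pairs of groups, and in 1 pair, the 24 h groups, all were over 0.1.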

Additional observations from a re-analysis of the deposited data

How the results depend on the processing

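Of 130 pairs of gene and contrast for the 10 genes, 23 were called. Of these, 11 were called under each of the 8 settings that keep all libraries of the groups compared, and with each of the 18 libraries left out in turn. Among the 8 settings, the fit of only the groups compared drops the other groups. That fit was not run for the contrast averaged over states. No called pair changed sign under these alternatives, and the changed signs, 117 of 3380 recomputed values in 37 pairs, were of values called on neither side. The numbers of genes called moved as follows when 1 library was left out: from 4 to between 2 and 5 in the 8 h zone contrast, with 2 when periportal 8 h replicate 2 or 3, or replicate 1 of the pericentral 8 h group, was left out; from 3 to between 1 and 3 in the 24 h zone contrast, with 1 without pericentral 24 h replicate 1. From fed to 8 h the pericentral count of 1 ranged from 0 to 1, with 0 without fed replicate 3 or 8 h replicate 3, and the periportal count of 3 ranged from 1 to 4, with 1 without fed replicate 1 or 3 or 8 h replicate 2 or 3. From fed to 24 h the count of 1 ranged from 0 to 1 in each zone, with 0 without pericentral fed replicate 1 or periportal 24 h replicate 1. With only the groups compared in the fit, the 8 h zone contrast called 2 genes. The Wald test of DESeq2 called 2 genes from fed to 24 h in periportal hepatocytes. The cause was not tested. The counts 3 fed and 5 averaged over states stayed between 2 and 4 and between 4 and 6 under all alternatives.

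The replicate number as a block in the fit of all groups left the 24 h zone count at 3 genes and changed 0 of the 130 calls. In the 24 h groups alone, where the numbers deviated together, the fit with the block, an alternative chosen after the data were seen, called 2 genes (Cyp27a1 and Nr0b2). The fit of those groups without the block likewise lost Cyp7a1 and Cyp8b1 and called Nr0b2, so these changes do not depend on the block. The lowest count of the 10 genes was 162, and the effect of depth on their calls was not tested. Outlying libraries were not tested within groups of 3.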

Other observations

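Slc10a2, the sodium-dependent bile acid carrier best known from the ileum and the bile duct, was chosen here after its values were seen. It was detected in every library, from 6.10 to 36.8 CPM. Of the other bile duct markers, Krt7 was at 11.1 to 20.2 CPM and Sox9 at 2.42 to 17.4 CPM, Krt19 and Cftr stayed at or below 0.506 CPM and Epcam was at 0, and their part in the Slc10a2 values was not tested. Fed pericentral libraries held 34.3, 25.95 and 32.7 CPM of Slc10a2, the 8 h ones 13.1, 11.2 and 10.05 CPM and the 24 h ones 10.04, 6.10 and 8.80 CPM. All fed pericentral libraries were above all fasted ones. It fell 2.70-fold from fed to 8 h (log2 fold change -1.44, SE 0.34, edgeR adjusted p 0.0101) and was 3.73-fold lower at 24 h than fed (log2 fold change -1.90, SE 0.35, edgeR adjusted p 0.00134). In periportal hepatocytes the log2 fold changes against fed were -0.86 and -0.80 and did not pass the test (edgeR adjusted p 0.102 and 0.107). The difference between the zones in these changes did not pass the test either (edgeR adjusted p 0.972 and 0.6).

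Slc51b, a subunit of the basolateral bile acid exporter, was also chosen after its values were seen. It was low, at means of 1.46 ± 0.483 CPM fed, 1.54 ± 0.724 CPM after 8 h and 0.652 ± 0.0986 CPM after 24 h in periportal libraries (SD, n = 3), against at most 0.328 CPM in any pericentral library. Its averaged zone contrast was called (edgeR adjusted p 1.92e-05). Most tested markers of endothelial cells and of Kupffer cells and leukocytes were also called higher in periportal libraries. So were 2 of the 3 bile duct markers tested, Sox9 and Slc10a2. The part of all these markers in the Slc51b values was not tested. Slc51a, the partner of Slc51b, had too few counts to test.

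Hsd3b7 followed Abcb11 in direction from fed to 8 h and from 8 h to 24 h. It rose from fed to 8 h in pericentral (log2 fold change 0.74, SE 0.18, edgeR adjusted p 0.0107) and periportal hepatocytes (log2 fold change 1.38, SE 0.18, edgeR adjusted p 0.000114). From 8 h to 24 h it fell (log2 fold changes -1.06 and -1.43, edgeR adjusted p 0.00195 and 0.00036). At 24 h against fed, where Abcb11 was called lower in both zones, Hsd3b7 was called in neither. Its means were 282 CPM fed and 225 CPM at 24 h in pericentral, and 87.8 and 84.6 CPM in periportal hepatocytes. Its 8 h values were looked at after the data were seen, and they carry the same difference in clock hour.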
